A study of Mus musculus with 6 samples.

Results

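The Serpin family of the mouse is the set of genes whose symbol starts with Serpin, and 63 of the 35415 genes in the count and FPKM files of lateral septum (LS) RNA-seq carried such a symbol. Symbols ending in -ps, which marks pseudogenes, were left out by rule before the 63 were counted. The clade was read from the letter after Serpin, which gave 24 members of clade A, 28 of clade B, 3 of clade E, 2 each of clades F and I, and 1 each of clades C, D, G and H. Membership rests on the symbol alone, but the family was chosen for description after the counts of its clade A members in the same control and olanzapine libraries had been seen. The differences below therefore describe the values by which the family was picked and are not independent evidence for it.

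All mice were wild-type C57BL/6 females that arrived at about 8 weeks of age and had 1 week of acclimation. The control group ate maintenance chow, and the olanzapine group ate the same kind of feed with olanzapine, an atypical antipsychotic drug, at 50 mg per kg of feed, both for 12 weeks. The LS was micro-dissected, and the tissue of 3 mice was pooled for every library, so n = 3 pools per group and the variation from mouse to mouse cannot be seen. Counts on genes summed to between 38208153 and 39868872 per library.

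Serpins share 1 protein fold with an exposed reactive centre loop. A target protease cuts the loop after a residue called P1, and the inhibitor then changes shape and traps the protease in a covalent complex, so the loop sequence sets which proteases are bound. Many clade A, C, D and F members are made by the liver and circulate in plasma, where they hold back elastase, coagulation and fibrinolysis. Clade B members mostly stay inside cells, and neurons and glia make clade E and I members that act on tissue plasminogen activator, urokinase and thrombin. Some members, such as the collagen chaperone Serpinh1, inhibit no protease.

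Of the 63 members, 46 had at least 1 count, and 27 passed the count filter of edgeR and were tested together with the other genes that passed. A member was called when its Benjamini-Hochberg adjusted p over all 17255 genes was under 0.05 and its fold change was above 2 or below 0.5. Of the 27 tested members, 10 were called higher in the olanzapine group, where 0.950% of all tested genes were called higher. No member was called lower with edgeR's quasi-likelihood test or with DESeq2, where edgeR called 0.0580% and DESeq2 0.197% of all tested genes lower. Of the members, 2 were lower at an unadjusted p under 0.05, against 8.40% of all tested genes. The called members were Serpina1a, Serpina1b, Serpina1c, Serpina1d, Serpina1e, Serpina3k, Serpina3m and Serpina10 of clade A, Serpinc1 and Serpinf2. Clade A had 8 calls among 11 tested members, and the other clades together had 2 among 16. The median log2 fold change was 4.03 over the 11 tested clade A members and 0.10 over the 16 others, beside 0.0039 over all 17255 genes. With Serpina10 set to its fold over a floor of 3 counts per control library, the clade A median was 3.33. These counts and medians describe only the members that passed the filter, because a gene low in both groups was not tested, as was so for 13 of the 24 clade A members, while a gene high in 1 group was. Serpina10, Serpina1a, Serpina1b, Serpina1d, Serpina3m and Serpinc1 reached the minimum of 10 counts, scaled for library size, in all 3 pools of the olanzapine group only, and all 6 were called. Of the 19 members that reached it in all 6 pools, 4 were called higher, namely Serpina1c, Serpina1e, Serpina3k and Serpinf2. Serpina3g and Serpine3 passed with pools of both groups and were not called. The normalized counts of the 3 olanzapine pools did not overlap with those of the 3 control pools in 13 members, against 24.3% of all tested genes. They lay above all control pools in 11 of these members, against 13.3% of all tested genes, and below them in the other 2, Serpinb6b and Serpinb9. In bulk tissue, a change in the number of cells that make an RNA cannot be told apart from a change in the RNA per cell.

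**Figure D1:**
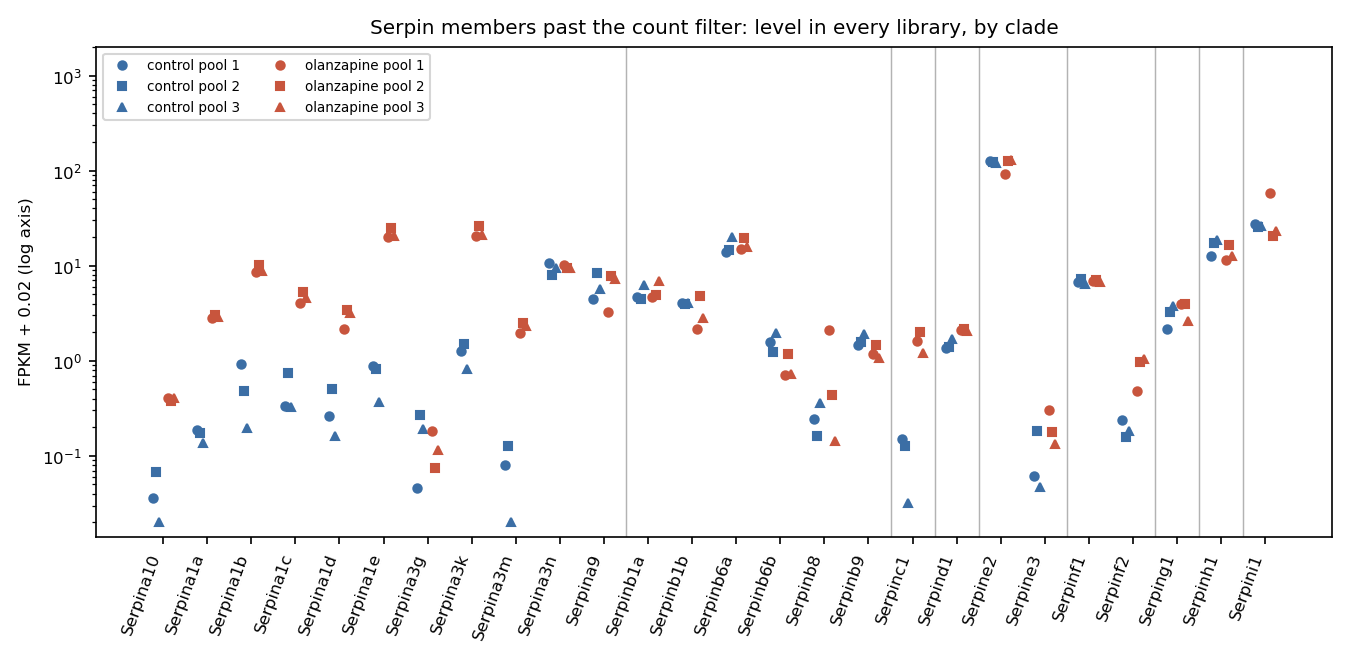
FPKM plus 0.02 on a log axis for 26 of the 27 tested Serpin members, grouped by clade, with a point for each of the 3 control pools and 3 olanzapine pools. Serpina1a to Serpina1e, Serpina3k, Serpina3m, Serpina10, Serpinc1 and Serpinf2 have all olanzapine points above all control points, and Serpine2 is the highest member in every pool.

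Clade A members other than Serpina7, which lies on chromosome X, formed a cluster of 23 genes at chr12:103614786-104414329 of GRCm38. The 5 paralogues Serpina1a to Serpina1e, which encode forms of the plasma inhibitor α1-antitrypsin, lie inside this cluster. Their coding sequences were identical at 96.3% to 98.5% of aligned bases over the 10 pairs, while the 60 bases that encode the reactive centre loop were identical at 86.7% to 93.3%. The loops are shown because they are the part in which the 5 proteins are known to differ in target. Each is the coding strand of GRCm38, in the last coding exon, and the capitals mark the P1 codon.
Serpina1a: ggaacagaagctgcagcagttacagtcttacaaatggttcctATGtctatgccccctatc
Serpina1b: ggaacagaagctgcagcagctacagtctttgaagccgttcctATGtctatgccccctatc
Serpina1c: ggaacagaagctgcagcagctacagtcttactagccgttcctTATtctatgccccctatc
Serpina1d: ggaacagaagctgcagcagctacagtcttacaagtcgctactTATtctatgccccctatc
Serpina1e: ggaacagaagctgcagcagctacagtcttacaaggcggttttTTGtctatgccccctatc
The P1 codon encodes methionine in Serpina1a and Serpina1b, tyrosine in Serpina1c and Serpina1d, and leucine in Serpina1e. The loops lie on the minus strand at chr12:103853771-103853830 for Serpina1a, chr12:103728338-103728397 for Serpina1b, chr12:103895108-103895167 for Serpina1c, chr12:103763776-103763835 for Serpina1d and chr12:103947114-103947173 for Serpina1e.

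All 5 genes rose. Serpina1e, with leucine at P1, had deposited counts of 47, 44 and 19 in control pools 1 to 3 and of 1050, 1308 and 1087 in olanzapine pools 1 to 3. The normalized count of Serpina1e came to 36.4 ± 15.3 (SD, n = 3) in the control group against 1156 ± 118 (SD, n = 3) in the olanzapine group, with a log2 fold change of 4.98 ± 0.28 (SE). Every olanzapine pool of Serpina1e was far above every control pool, and the same held for the 4 other paralogues. Serpina1b had counts of 52, 26 and 10 in the control pools against 473, 552 and 490 in the olanzapine pools, a log2 fold change of 4.12 ± 0.45 (SE). Serpina1a had counts of 13, 12 and 9 against 209, 224 and 214, a log2 fold change of 4.26 ± 0.24 (SE). Both genes with methionine at P1 thus had control counts no higher than 52. Serpina1c had counts of 18, 41 and 17 against 219, 286 and 250, and Serpina1d had 14, 28 and 8 against 118, 189 and 177. The log2 fold changes of these 2 genes with tyrosine at P1 were 3.33 ± 0.35 and 3.28 ± 0.43 (SE). Adjusted p-values over all genes, from edgeR's quasi-likelihood test, ran from 0.000269 for Serpina1a to 0.0100 for Serpina1d. Without control pool 1 the adjusted p of Serpina1d was 0.0568, and the log2 fold change of Serpina1b was 4.82. That of Serpina1d was 3.88 without control pool 2.

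The 5 genes did not keep their proportions. Together they had 144, 151 and 63 counts in the control pools against 2069, 2559 and 2218 in the olanzapine pools. Serpina1e took 32.6%, 29.1% and 30.2% of these counts in the control pools, with 95% Wilson intervals of 25.5% to 40.7%, 22.5% to 36.8% and 20.2% to 42.4%. In the olanzapine pools it took 50.7%, 51.1% and 49.0%, with intervals of 48.6% to 52.9%, 49.2% to 53.0% and 46.9% to 51.1%. No interval of a control pool reached those of the olanzapine pools, and the intervals cover counting error only. Serpina1c took 12.5%, 27.2% and 27.0% of the counts in the control pools against 10.6%, 11.2% and 11.3% in the olanzapine pools, so control pool 1 was close to the olanzapine pools. Serpina1d averaged 13.7% ± 4.49 (SD, n = 3) in the controls and 7.02% ± 1.18 with olanzapine, and Serpina1a and Serpina1b overlapped between the groups. The split between the 5 genes is uncertain, because reads that fit several of them can be dropped or assigned differently in counting. Of the 150-base windows of its longest coding transcript, 90.6% were found in no other gene for Serpina1e, 78.8% for Serpina1b, 76.7% for Serpina1d, 59.3% for Serpina1a and 51.9% for Serpina1c. The exons of Serpina1c also shared 31.5% of their bases with B430119L08Rik on the opposite strand, and the strand setting of the counting is not given in the sources used here.

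**Figure D2:**
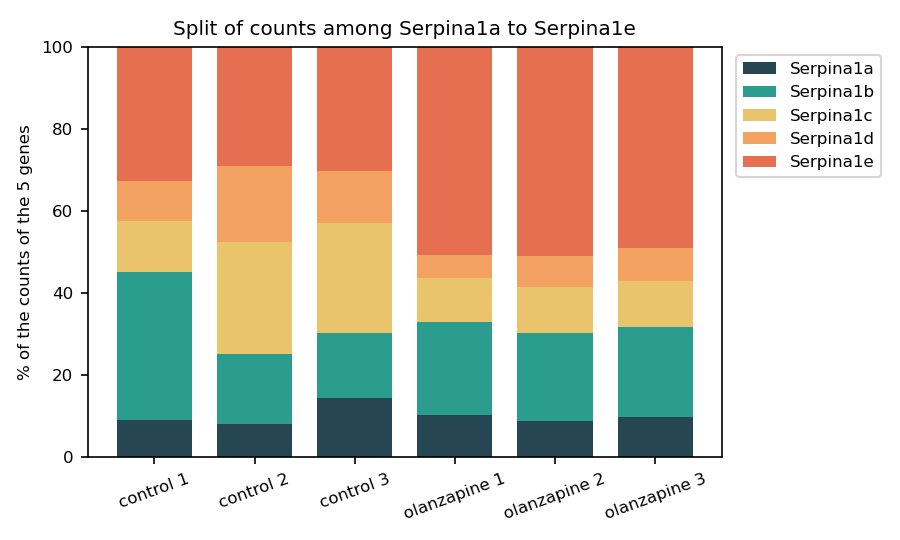
Stacked bars of the percent of counts that each of Serpina1a to Serpina1e took of the counts of the 5 genes, for the 3 control and the 3 olanzapine libraries. Serpina1e takes 29.1% to 32.6% in the control libraries and 49.0% to 51.1% in the olanzapine libraries, and the control bars vary more among themselves.

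The promoters of the 5 genes are shown because the genes moved together. RefSeq promoter windows of 300 bases on GRCm38.p6 were available for 54 of the 63 members, and a stretch of 46 bases upstream of the start was identical in all 5. The capitals mark GTTAAT, the core of the site of HNF1, a transcription factor of liver, kidney and gut.
Serpina1a to Serpina1e: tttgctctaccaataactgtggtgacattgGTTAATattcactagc
GTTAAT began 21 bases before the annotated start of Serpina1a, 26 before that of Serpina1b, 27 before that of Serpina1c, 16 before that of Serpina1d and 78 before that of Serpina1e, all on the coding strand. The stretch starts the windows chr12:103863620-103863670, chr12:103738190-103738245, chr12:103904951-103905007, chr12:103773634-103773679 and chr12:103956946-103957005, in the same order of genes and read on the minus strand. Searched on both strands, GTTAAT was in 7.1% of all 32851 promoter windows and in at least 1 window of 8.24% of the 27025 genes. It was in 5 of the 7 called members with a window, which are these 5 genes with the shared stretch, and in 1 of the 13 tested members that were not called, Serpinb8. It was also in 5 of the 34 untested members with a window, Serpina3c, Serpina7, Serpinb3b, Serpinb3d and Serpini2, of which Serpinb3d and Serpini2 had no count in any library. The windows of Serpinc1 and Serpinf2 did not hold these letters, and Serpina3k, Serpina3m and Serpina10 had no window. TATAAA, the other motif searched, was in none of the 5 windows, so the motifs did not overlap there, and it was in 15.7% of genes.

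Serpina3k and Serpina3m are contrapsin-like inhibitors of trypsin-like proteases that come from the large mouse expansion of the α1-antichymotrypsin gene. On chromosome 12, the annotated span of Serpina3m, chr12:104338486-104394257, contains that of Serpina3k, chr12:104338486-104346144. Serpina3k was the called member with the most counts, with 83, 98 and 52 in the control pools against 1292, 1653 and 1347 in the olanzapine pools. Its normalized count was 77.1 ± 23.2 (SD, n = 3) in the controls and rose to 1440 ± 168 with olanzapine, a log2 fold change of 4.22 ± 0.22 (SE) with an adjusted p of 0.000200 in edgeR's test over all genes. Serpina3m had 4, 7 and 0 counts in the control pools against 123, 156 and 149 in the olanzapine pools. Its log2 fold change was 5.25 ± 0.61 (SE, adjusted p = 0.00556, edgeR), and the ratio of the summed counts, scaled for library size, was 39.5 with a 95% exact counting interval of 21.9 to 79.7. The fitted log2 fold change of Serpina3m ran from 4.69 without control pool 3 to 6.09 without control pool 2. Both genes had no overlap between the groups. The annotated exons of Serpina3k shared 2.92% of their bases with Serpina3m on the same strand, and 99.7% of the 150-base windows of either gene were unique.

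The neighbouring Serpina3n, an inhibitor that astrocytes raise when they become reactive, was not called. It starts 12472 bases after the end of Serpina3m, and it had 938, 710 and 823 counts in the control pools against 863, 800 and 807 in the olanzapine pools. The log2 fold change was 0.02 ± 0.12 (SE, adjusted p = 0.948, edgeR), and the range of the olanzapine pools lay inside that of the control pools. The reactive centre loops of the 3 genes are printed to show how far neighbours with different changes diverge at the loop, in the plus strand of GRCm38, with capitals at the codon that has the same offset in the loop as P1 of the α1-antitrypsin genes.
Serpina3k: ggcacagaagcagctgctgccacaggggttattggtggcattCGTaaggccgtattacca
Serpina3m: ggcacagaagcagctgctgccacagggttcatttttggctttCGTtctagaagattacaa
Serpina3n: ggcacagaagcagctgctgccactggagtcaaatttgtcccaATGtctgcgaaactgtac
They lie at chr12:104345269-104345328, chr12:104393769-104393828 and chr12:104413448-104413507, each in the last coding exon. The codon at this offset encodes arginine in Serpina3k and Serpina3m and methionine in Serpina3n. The fourth tested gene of this subgroup, Serpina3g, an intracellular serpin of immune cells, had between 2 and 19 counts per library and was not called.

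Serpina10, the protein Z-dependent inhibitor of coagulation factor Xa, had 1, 3 and 0 counts in the control pools against 24, 22 and 24 in the olanzapine pools. The summed and scaled counts gave a ratio of 17.8 with a 95% exact counting interval of 6.64 to 67.0. The fitted log2 fold change was 4.03 with all pools and ran from 3.49 without control pool 3 to 5.25 without control pool 2. The adjusted p was 0.0371 (edgeR's quasi-likelihood test), but the call was lost without any 1 of the 6 pools, and its adjusted p reached 0.154 over all alternatives. Serpina9, a serpin of germinal centre B cells, had 326, 609 and 411 counts in the control pools against 227, 545 and 517 in the olanzapine pools. Its groups overlapped, and the log2 fold change was -0.05 ± 0.34 (SE, adjusted p = 0.960, edgeR). Outside chromosome 12 and below the count filter, Serpina7, the thyroxine-binding globulin, had 0, 0 and 0 counts against 4, 8 and 0. Serpina6, the corticosteroid-binding globulin of plasma, had 9 counts over all 6 libraries, and Serpina12, the adipokine vaspin, had 5. Serpina11 had 1, 0 and 0 counts against 13, 4 and 1, but 59.9% of its 150-base windows were unique because Gm28577 contains part of its exons. Serpina3f leaned the other way, with 0, 4 and 5 counts in the control pools against 1, 0 and 1 in the olanzapine pools. Serpina3c and Serpina3i had 12 and 2 counts over all libraries. Serpina1f, Serpina3a, Serpina3b, Serpina3j, Serpina5 and Serpina16 had no count in any library.

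**Figure D3:**
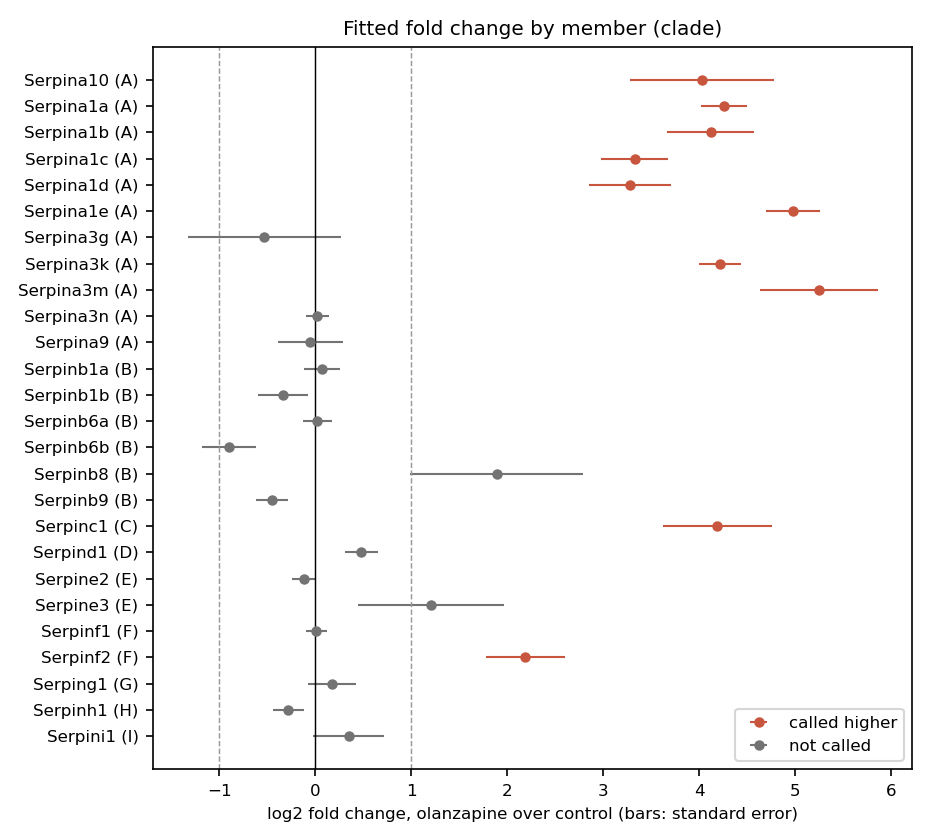
Fitted log2 fold change of olanzapine over control for 26 of the 27 tested Serpin members, with bars of 1 standard error, dashed lines at -1 and 1, and called members in red. The clade A calls lie between 3.28 and 5.25, Serpinc1 at 4.19 and Serpinf2 at 2.19, and the points of Serpina10 and Serpina3m rest on at most 7 counts per control library.

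Outside clade A, 2 plasma inhibitors rose. Serpinc1 encodes antithrombin, the main plasma inhibitor of thrombin and factor Xa, and had 11, 9 and 1 counts in the control pools against 129, 160 and 96 in the olanzapine pools. Its normalized count was 6.96 ± 5.27 (SD, n = 3) against 129 ± 30.9 (SD, n = 3), a log2 fold change of 4.19 ± 0.57 (SE, adjusted p = 0.0117, edgeR). Without control pool 2 the adjusted p was 0.0669. The exons of the longest coding transcript of Serpinc1 in GENCODE, of 4970 bases, shared 59.2% of their bases with Zbtb37 on the opposite strand. Reads from that part cannot be told apart if strand was not used. The annotation behind the deposited counts is not given, so the overlap of the counted exons is not known. Serpinf2 encodes α2-antiplasmin, the inhibitor of plasmin, and had 19, 12 and 14 counts in the control pools against 39, 79 and 87 in the olanzapine pools. Its log2 fold change was 2.19 ± 0.41 (SE, adjusted p = 0.0380, edgeR), the smallest among the called members. The call on Serpinf2 was lost without control pool 1, 2 or 3 and without olanzapine pool 2 or 3, and its adjusted p reached 0.155 over all alternatives.

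The loop of Serpinc1 is printed because it carries the arginine at which thrombin cuts. It lies at chr1:161002299-161002358, on the plus strand of GRCm38, and the capitals mark the P1 codon.
Serpinc1: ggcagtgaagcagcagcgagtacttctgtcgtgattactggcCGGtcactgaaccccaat

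Other secreted serpins were not called. Serpind1, heparin cofactor II, a thrombin inhibitor that heparin or dermatan sulphate activates, had 118, 121 and 146 counts in the control pools against 177, 179 and 174 in the olanzapine pools. The olanzapine pools lay above all control pools, but the log2 fold change was 0.48 ± 0.17 (SE) and the adjusted p 0.198 (edgeR). Serping1, the C1 inhibitor of complement and plasma kallikrein, had 158, 236 and 271 counts against 276, 276 and 183. The groups of Serping1 overlapped, and its log2 fold change was 0.17 ± 0.25 (SE, adjusted p = 0.779, edgeR). Serpinf1, the neurotrophic pigment epithelium-derived factor, which inhibits no protease, had 397, 429 and 374 counts against 393, 406 and 394. Its control and olanzapine pools overlapped, and the log2 fold change was 0.01 ± 0.11 (SE).

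Markers of liver cells moved with the called members. Of 16 hepatocyte genes chosen for this comparison, 14 were called higher, against 0.950% of all tested genes, and the 16 had a median log2 fold change of 4.06. Their summed normalized count ranged from 499.7 to 903 over the control pools and from 10393 to 12704 over the olanzapine pools, and none of the 16 was at 0 in all libraries. Alb, which encodes albumin, had 460, 507 and 268 counts in the control pools against 5049, 6632 and 5345 in the olanzapine pools, a log2 fold change of 3.80 ± 0.23 (SE, adjusted p = 0.000301, edgeR). The fibrinogen genes Fga and Fgb and the plasma protein gene Ahsg also rose, by 4.86, 5.02 and 4.09 on the log2 scale. The part of liver RNA or liver-like cells in the serpin result was not tested. Among the marker lists for other cells, blood cells had 5 tested genes of 9 and no call, with summed normalized counts of 2210 to 2880 in the control pools against 2255 to 2702 in the olanzapine pools.

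The called members were therefore also set against Alb within each library. Counts of Serpina3k per 100 counts of Alb were 18.0, 19.3 and 19.4 in the control pools against 25.6, 24.9 and 25.2 in the olanzapine pools. The 2 groups of this ratio did not overlap. Serpina1e gave 10.2, 8.68 and 7.09 counts per 100 of Alb in the control pools against 20.8, 19.7 and 20.3 in the olanzapine pools. Serpina1a and Serpina3m were also above their control pools on this scale, although Serpina1a only by 3.38 against 3.36 at the nearest pools. Serpina1b, Serpina1c, Serpina1d, Serpina10 and Serpinc1 overlapped between the groups. Serpinf2 was lower relative to Alb, with 3.91 ± 1.44 (SD, n = 3) counts per 100 of Alb in the control group but 1.20 ± 0.428 in the olanzapine group. No test was made of these ratios, and they hold for Alb as the reference only. The log2 fold changes of the 16 hepatocyte genes ran from 1.19 to 5.28, with Alb at 3.80 and Fgb at 5.02. Serpina3k at 4.22, Serpina1a at 4.26 and Serpina1e at 4.98 rose more than Alb but not more than Fgb. Ratios to other genes of the list were not taken.

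**Figure D4:**
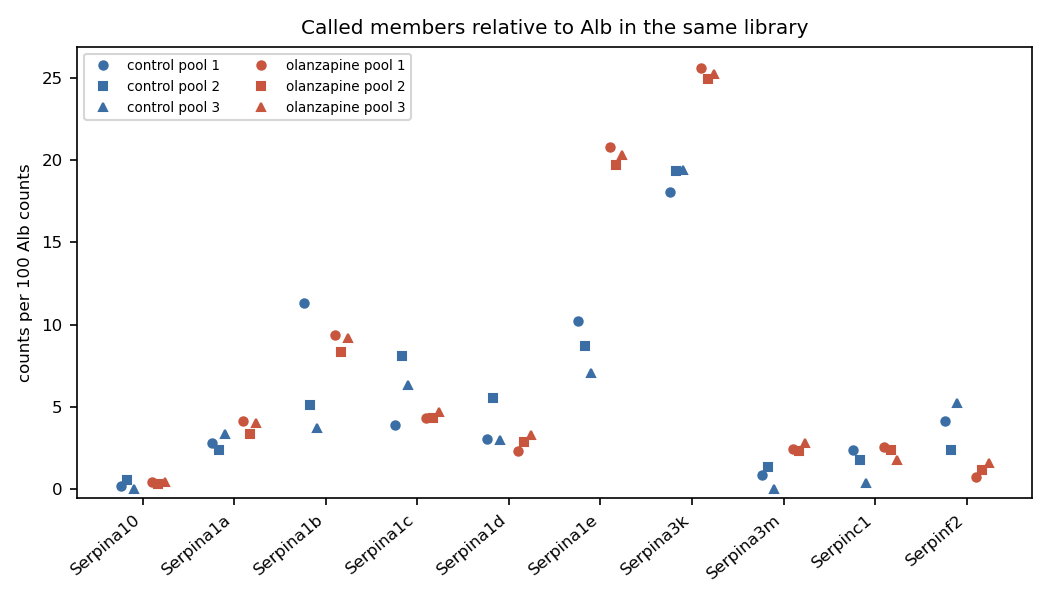
Counts of the 10 called members per 100 counts of Alb in the same library, with a point for each control and olanzapine pool. Serpina3k sits at 18.0 to 19.4 in the control pools against 24.9 to 25.6 in the olanzapine pools, Serpina1e at 7.09 to 10.2 and 19.7 to 20.8, and Serpinf2 is the member whose olanzapine points all lie below the control points.

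In the control group, the serpins with the highest levels per length were not among the called members. Serpine2, protease nexin-1, a brain inhibitor of thrombin, urokinase and tissue plasminogen activator, had an FPKM of 125, 124 and 120.0 in the control pools against 91.3, 126 and 129 in the olanzapine pools. FPKM divides counts by gene length and library size, so it can be compared between genes. Serpine2 stood above every other member in each library, with no overlap with the next gene. Its log2 fold change was -0.12 ± 0.12 (SE, adjusted p = 0.655, edgeR), and olanzapine pool 1 was the lowest and olanzapine pool 3 the highest of the 6. Without olanzapine pool 1 the log2 fold change was 0.01.

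In the control group, Serpine2 was followed by median FPKM by Serpini1 at 26.4, Serpinh1 at 17.2, Serpinb6a at 14.7, Serpina3n at 9.37 and Serpinf1 at 6.67. The ranges of Serpinh1 and Serpinb6a overlapped, as did those of Serpinf1 and Serpina9, and the other neighbours in this top group did not. Serpina3k held place 14 with 1.26 and Serpina1e place 16 with 0.805. In the olanzapine group, Serpina3k and Serpina1e held places 3 and 4 with median FPKM of 21.0 and 20.4, next to Serpini1 at 23.3, and the ranges of these 3 genes overlapped. Clade A summed to 18.9, 20.9 and 17.2 FPKM in the control pools against 73.9, 93.3 and 80.4 in the olanzapine pools. As a share of the FPKM of the whole family, that was 7.49% to 9.22% in the control pools against 26.7% to 30.5% in the olanzapine pools. All members outside clade A summed to 203, 206 and 213 FPKM in the control pools against 203, 213 and 207 in the olanzapine pools, and these ranges overlapped.

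Serpini1, neuroserpin, the axonally secreted inhibitor of tissue plasminogen activator, was set apart by 1 pool. It had 3469, 3255 and 3298 counts in the control pools against 7142, 2498 and 2866 in the olanzapine pools, so olanzapine pool 1 was above and the 2 other pools below every control pool. The log2 fold change was 0.35 ± 0.37 (SE, adjusted p = 0.669, edgeR) with all pools and -0.31 without olanzapine pool 1, where the adjusted p was 0.10. The 60 loop bases of Serpini1 span an intron, with the outer bases at chr3:75637980-75640283 on the plus strand of GRCm38, and hold an arginine codon at P1.
Serpini1: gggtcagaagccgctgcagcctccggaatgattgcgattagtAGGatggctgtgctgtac
Serpinb8, an intracellular inhibitor of the proprotein convertase furin that was described after its values were seen, had 30, 19 and 45 counts in the control pools against 271, 53 and 16 in the olanzapine pools. Its log2 fold change was 1.89 ± 0.90 (SE, adjusted p = 0.329, edgeR) with all pools and 0.14 without olanzapine pool 1. Among 14280 genes with a mean normalized count of at least 50, 133 (0.931%) were more than 2 times as high in olanzapine pool 1 as in any other pool, and between 0 and 3 genes were so in each of the other pools, a rule chosen after the values of Serpini1 were seen. Serpini1 and Serpinb8 were the Serpin members among the 133. The protease Prss12, named after its values were seen, had 745 counts in that pool and 45 to 197 in the others.

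**Figure D5:**
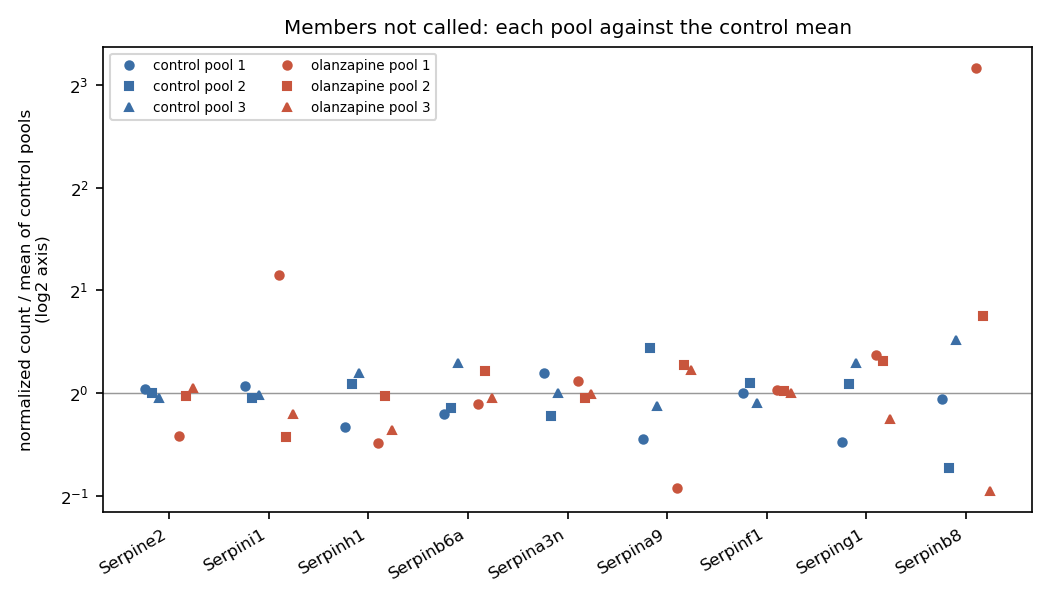
Normalized count of 9 members that were not called, divided by the mean of the control pools, on a log2 axis with a point for each pool. Serpini1 and Serpinb8 are high in olanzapine pool 1 alone, at 7359 and 279 normalized counts against at most 3466 and 52.3 elsewhere, while Serpine2 and Serpina9 are lowest in that pool.

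Serpinh1, the endoplasmic reticulum chaperone HSP47 that folds collagen, had 1253, 1700 and 1821 counts in the control pools against 1089, 1570 and 1225 in the olanzapine pools. The log2 fold change was -0.28 ± 0.16 (SE, adjusted p = 0.419, edgeR), and the groups overlapped. The pools differed in choroid plexus RNA, since Ttr had 1398, 95227 and 269659 counts in the control pools against 38825, 167154 and 808 in the olanzapine pools. Serpinh1 was highest in the pool with the most Ttr in each group, but olanzapine pool 3, with the least Ttr, had more Serpinh1 than olanzapine pool 1. The part of choroid plexus in its level was not tested. Serpine3, whose exons share 24.8% of their bases with Ints6 on the opposite strand, had between 2 and 20 counts per library and was not called.

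Clade B had 28 members, of which 12 lie on chromosome 1 and 15 on chromosome 13, and Serpinb9h was not in the GENCODE annotation used. The clade had 6 tested members and no call with edgeR or DESeq2, and its median log2 fold change was -0.16. Serpinb6a, an intracellular inhibitor of cathepsin G-like and trypsin-like proteases, was the most abundant, with 1159, 1222 and 1642 counts in the control pools against 1197, 1560 and 1279 in the olanzapine pools. Its groups overlapped in full, and the log2 fold change was 0.02 ± 0.15 (SE), with 16.2% of its exon bases shared with 1110046J04Rik on the opposite strand. Serpinb6b, its close relative, had 150, 118 and 185 counts against 65, 109 and 66, with every olanzapine pool below every control pool. Serpinb9, the inhibitor of granzyme B that protects cells from cytotoxic granules, had 306, 333 and 394 counts against 235, 294 and 215 and was likewise lower in all 3 pools. Neither passed the test, with log2 fold changes of -0.90 ± 0.28 and -0.45 ± 0.17 (SE) and adjusted p-values of 0.153 and 0.214 (edgeR), and these were the 2 lower members with an unadjusted p under 0.05. With DESeq2 the adjusted p-values were 0.0521 for Serpinb6b, close to the threshold, and 0.1435 for Serpinb9. Leaving out 1 pool gave log2 fold changes of -1.17 to -0.72 for Serpinb6b and -0.58 to -0.34 for Serpinb9.

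Serpinb1a and Serpinb1b are inhibitors of leukocyte elastase and related proteases. Serpinb1a had 450, 429 and 594 counts in the control pools against 433, 450 and 643 in the olanzapine pools, a log2 fold change of 0.07 ± 0.19 (SE). Serpinb1b had 363, 353 and 365 counts against 186, 418 and 244, and a log2 fold change of -0.34 ± 0.26 (SE). The control pools of Serpinb1b lay within 12 counts of each other while its olanzapine pools lay on both sides of them. A further 12 clade B members had counts but did not pass the filter. Serpinb11 had the most counts among all untested members, 9, 11 and 16 in the control pools against 0, 6 and 1 in the olanzapine pools. Serpinb5, the epithelial serpin maspin, had 18 of its 33 counts in control pool 1, and Serpinb2, plasminogen activator inhibitor 2, had 35 counts over all libraries. Serpinb3a, Serpinb3c, Serpinb3d, Serpinb6d, Serpinb9d, Serpinb9e, Serpinb9f, Serpinb9g, Serpinb9h and Serpinb13 had no count in any library, and Serpini2 of clade I had none either.

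The proteases that serpins bind were described from a list of 45 genes, of which 44 were in the files and 30 were tested. Of these, edgeR called 4 higher, against 0.950% of all tested genes, and DESeq2 called 6 higher, against 1.53%. Neither called any lower, and 8 were higher and 0 lower at an unadjusted p under 0.05, against 9.19% and 8.40% of all tested genes. F2, which encodes prothrombin, the precursor of the thrombin that antithrombin binds, had 18, 3 and 6 counts in the control pools against 84, 116 and 112 in the olanzapine pools, a log2 fold change of 3.53 ± 0.55 (SE, adjusted p = 0.0207, edgeR). Plg, which encodes plasminogen, the precursor of the target of Serpinf2, had 6, 8 and 4 counts against 105, 190 and 129, a log2 fold change of 4.55 ± 0.38 (SE). The complement proteases Cfb and Cfi rose by 2.63 and 4.41 on the log2 scale. Plat, tissue plasminogen activator and the target of Serpini1, had 1176, 1170 and 1241 counts against 1193, 1150 and 1148, a log2 fold change of -0.02 ± 0.07 (SE). Elane, Ctsg and Cma1, which encode neutrophil elastase, cathepsin G and mast cell chymase and are targets of α1-antitrypsin or α1-antichymotrypsin type inhibitors, had no count in any library and were named for that reason. Not all proteases of this part of the list were absent. Prtn3, named after its values were seen, had 58, 55 and 32 counts in the control pools against 74, 64 and 60 in the olanzapine pools. Its log2 fold change was 0.47 ± 0.31 (SE), and it was not called. None of the 8 tested leukocyte, mast cell and tissue proteases and none of the 6 cysteine cathepsins was called by edgeR or DESeq2, and 0 of these 14 had an unadjusted p under 0.05. The cathepsin Ctsb had a normalized count of 21937 ± 852 (SD, n = 3) in the control group against 22099 ± 759 (SD, n = 3) in the olanzapine group.

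Inhibitors outside the family were described from lists of plasma and of tissue inhibitors. Of 14 plasma inhibitors, 13 were tested and 9 were called higher, against 0.950% of all tested genes, with a median log2 fold change of 4.09 over the 13. These included the α2-macroglobulin-type Mug1 and Pzp, which trap proteases of every class, at 4.74 ± 0.44 and 4.10 ± 0.29 (SE), and the α1-microglobulin and bikunin precursor Ambp at 4.68 ± 0.23 (SE). Kng1 and Ahsg were among the other 6, and Ambp and Ahsg are also on the hepatocyte list. Itih3, the most abundant gene of the list, was not called, with a normalized count of 3193 ± 692 (SD, n = 3) in the control group against 3046 ± 249 (SD, n = 3) in the olanzapine group. A2m, which encodes α2-macroglobulin and was named after its values were seen, was at -0.12 ± 0.77 (SE) and not called either. Of 12 tissue inhibitors, 10 were tested and none was called by edgeR or DESeq2, with a median log2 fold change of -0.03 and 1 lower gene at an unadjusted p under 0.05, against 8.40% of all tested genes. That list includes Cst3, cystatin C, at 0.03 ± 0.12 (SE) and Timp2, a metalloprotease inhibitor, at -0.36 ± 0.09 (SE, adjusted p = 0.0956, edgeR). Among 20 receptors, cofactors and cargo of serpins, all tested, none was called by edgeR or DESeq2, and the median log2 fold change was 0.00. At an unadjusted p under 0.05, 1 gene of these 20 was higher and 2 were lower, against 9.19% and 8.40% of all tested genes. Lrp1, the receptor that clears serpin and protease complexes, had a log2 fold change of -0.38 ± 0.12 (SE, adjusted p = 0.149, edgeR).

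Markers of the tissue and of other cells gave the following. The LS and GABA neuron list of 9 genes, all tested, was detected in all pools with summed normalized counts of 91135 to 116630 in the control pools against 75937 to 100070 in the olanzapine pools, and none was called. The 14 tested astrocyte genes had 1 call, Lcn2, named after its values were seen, with a log2 fold change of 3.31 and 7, 9 and 10 counts in the control pools against 66, 91 and 101 in the olanzapine pools, while Gfap was at -0.14. No call was made by edgeR or DESeq2 among 11 choroid plexus genes, 11 genes of meninges and fibroblasts and 8 genes of brain endothelium. The same held for 5 tested genes of squamous epithelium and 1 of exocrine pancreas, whose Cela3b, Cpb1 and Prss2 were at 0 in all libraries. At an unadjusted p under 0.05, 4 of the LS list, 5 of the astrocyte list and 2 of the endothelium list were lower, where 8.40% of all tested genes were, 1 of the squamous list and 1 of the astrocyte list were higher, against 9.19%, and no gene of the choroid plexus, meninges, blood or pancreas lists passed.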

How the data were processed

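RNA of micro-dissected LS was sequenced as 150-base pairs in 6 libraries, 3 per group. The authors used fastp for trimming, HISAT2 for alignment and HTSeq for counts per gene. The submitters' processing notes give mm10 as the build. The annotation, strand setting and treatment of reads with several matches are not given in the sources used here. The deposited counts are raw. The FPKM values deposited by the authors equal the counts times 1 factor per gene and 1 per library. Of the columns with per-sample values, 0 were unused.

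The members and gene lists were chosen with earlier results of these data known. Counts were normalized with TMM and tested with edgeR 4.0.16 (R 4.3.3), quasi-likelihood, group as the only term, with filterByExpr set to at least 10 counts and a total of 15, over 17255 genes. The standard error is the size of the log2 fold change divided by the square root of F. Scripts were tested on simulated data. An exact permutation test of 3 against 3 pools cannot give a p below 0.1. The labels number the pools but tie no number to a shared batch, and nothing says how mice were assigned to pools.

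Members that passed the filter were named in full where called or at a mean normalized count of at least 100, and the others by range or total. Of the pathway lists, genes were named that were called or had a mean of at least 1000, with at most 8 per list, so some of these are not named. Genes named outside this rule are marked in the text. Alternatives were DESeq2 1.42.0, RLE normalization, no filter, a mean count of 50 or more, a block for the replicate number, limma 3.58.1 on log2(FPKM + 1) or log2(FPKM + 0.1), no fold limit, and leaving out each pool. Positions, loops and unique windows came from GENCODE for GRCm38, which held 62 of the 63 members, 61 as protein-coding genes. Exon overlaps came from it too, for the longest coding transcript of each member, and need not match the annotation used for the counts. Promoters came from RefSeq. Protein sequences were not used here. Count totals of 38208153 to 39868872 per library set the precision for genes of low count, and the filter kept such a gene where enough pools of either group reached the minimum. Results of some single genes are left out here.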

Additional observations from a re-analysis of the deposited data

How the results depend on the processing

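The 10 calls on members, 8 of them in clade A, were all kept with DESeq2, RLE normalization, no count filter, limma on log2(FPKM + 0.1) and no limit on the fold change, and no alternative called a member lower. A mean of at least 50 counts removed Serpina10 and Serpinf2 from the test and left 8 calls, and limma on log2(FPKM + 1) lost the same 2. With the replicate number as a block, 8 members were called, 7 of them in clade A, again without Serpina10 and Serpinf2. Pools with the same number had correlations of 0.015, 0.108 and -0.404 between their deviations from the group means. With 3 pools per group, these values cannot decide whether the numbers tie pools to a shared batch. Leaving out 1 pool gave 7 to 9 calls on members and 6 to 7 in clade A, 0 lower calls, a clade A median of 3.49 to 4.06 and a median of the other clades of 0.01 to 0.22. Serpina1a, Serpina1b, Serpina1c, Serpina1e, Serpina3k and Serpina3m kept their calls in all 13 alternatives run on each. The clade A median was 4.13 at a mean of at least 50 counts, where fewer members enter, 1.61 on log2(FPKM + 1) and 3.17 on log2(FPKM + 0.1), where the pseudocount shrinks low genes.

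Signs turned in 9 members that were not called when 1 pool was left out. Their log2 fold changes ran from -1.02 to 0.06 for Serpina3g, -0.07 to 0.13 for Serpina3n, -0.24 to 0.25 for Serpina9, -0.13 to 0.24 for Serpinb1a, -0.08 to 0.20 for Serpinb6a, -0.21 to 0.01 for Serpine2, -0.03 to 0.07 for Serpinf1, -0.02 to 0.35 for Serping1 and -0.31 to 0.63 for Serpini1, and the cause was not tested. Depth limits the control levels of Serpina3m, Serpina10 and Serpinc1, which had at most 11 counts per control pool.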
